A study of Mus musculus with 8 samples.

Results

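The annexins are proteins that bind phospholipids when calcium rises. Each carries a conserved core of annexin repeats that docks on the inner face of membranes, and the short N-terminal tail differs from one annexin to the next. Annexin A2 is the best known partner of S100A10 (p11), a member of the S100 family of small EF-hand proteins. Dimers of S100A10 join annexin A2 molecules into a heterotetramer, which links membranes to actin and, at the cell surface, binds plasminogen and its activator. Hepatocytes of healthy liver are known for little annexin A2, while bile duct cells, macrophages and stellate cells make more of it.

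The 10 genes described here, Anxa1, Anxa2, Anxa3, Anxa4, Anxa5, Anxa6, Anxa7, Anxa11, Anxa13 and S100a10, were taken by symbol from a table of 21532 genes, and all 10 of them passed the filter of a mean normalized count of at least 10 that left 15989 genes to test. The family was chosen by the fall of Anxa2 between the groups in these same livers, so the differences between the groups are given for these genes as a description, with no p value. The samples were livers of male db/db mice, and all 8 mice carried this genotype, in which the leptin receptor does not function and obesity and diabetes develop. From 8 weeks of age, 4 mice received control and 4 received AF1 peptide, a peptide that follows the sequence of an ERα domain and carries a TAT leader, each at 5 mg/kg body weight by retro-orbital injection, 2 times per week for 5 weeks. RNA of each frozen liver was sequenced as 1 library, and the authors deposited normalized read counts, in which the reads of a library are divided by its size factor.

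Recovered reads ranged from 35260283 to 45117528 per control mouse and from 23031880 to 43978158 per AF1 peptide-treated mouse. The 8 hepatocyte markers, Alb among them, summed to at least 1742203 normalized counts in every library. AF1 peptide replicate 1 stood apart from the other livers. It was the lowest of the 8 mice in 23.4% and the highest in 25.9% of all tested genes, and its share of reads from the 13 mitochondrial genes (20.8%) was the lowest of all (22.4 to 37.8% in the others). It was also the lowest or highest mouse for 9 of the 10 genes of the family. Their fold changes and Pearson correlations are therefore given with and without it.

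Per kilobase of transcript, S100a10 had the highest level of the family. It had 16304 ± 4478 normalized counts per kilobase in control mice (SD, n = 4) and 13462 ± 3540 in AF1 peptide-treated mice (SD, n = 4). In control livers, Anxa2 (2159 ± 608) and Anxa5 (2071 ± 501) followed, and their ranges overlapped. Next came Anxa7 (1235 ± 93.9) and Anxa6 (1122 ± 120), whose ranges overlapped as well. Anxa4 (617 ± 57), Anxa11 (405 ± 25.3), Anxa3 (158 ± 13.2), Anxa1 (74 ± 13.3) and Anxa13 (40.2 ± 6.53) came after them, and in control mice no pair of neighbors in this order after Anxa6 overlapped. In AF1 peptide-treated livers, Anxa5, Anxa2, Anxa6 and Anxa7 had means from 1121 to 1365 per kilobase with overlapping ranges. The transcript length was that of the principal isoform in a reference annotation, and for Anxa13, which has none, that of its longest transcript.

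Anxa2 was lower in every AF1 peptide-treated liver than in every control liver. Control replicates 1 to 4 had 3113, 4358, 2674 and 2350 normalized counts of Anxa2. AF1 peptide replicates 1 to 4 had 843, 1976, 2258 and 2302. The lowest control mouse and the highest AF1 peptide-treated mouse were close, and replicate 1 was far below the other treated mice. The log2 fold change, on the log2(normalized count + 1) scale, was -0.82 (standard error 0.31), and without AF1 peptide replicate 1 it was -0.48. Without control replicate 2 it was -0.65 and no longer called. In whole liver, fewer cells of a type and less RNA per cell cannot be told apart.

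S100a10, which encodes the partner of annexin A2, differed less between the groups. Control mice had 10691, 15134, 11184 and 7664 normalized counts in the order of replicates, and AF1 peptide-treated mice had 5802, 10219, 9428 and 11437. The groups overlapped widely, and the highest AF1 peptide-treated mouse lay above 3 of the 4 control mice. The log2 fold change of S100a10 was -0.28 (standard error 0.24), and -0.07 without AF1 peptide replicate 1. The number of S100a10 counts for each count of Anxa2 was 3.26 to 4.18 in control mice and 4.18 to 6.88 in AF1 peptide-treated mice. It was highest in AF1 peptide replicate 1, and only AF1 peptide replicate 3 reached into the control range.

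**Figure D1:**
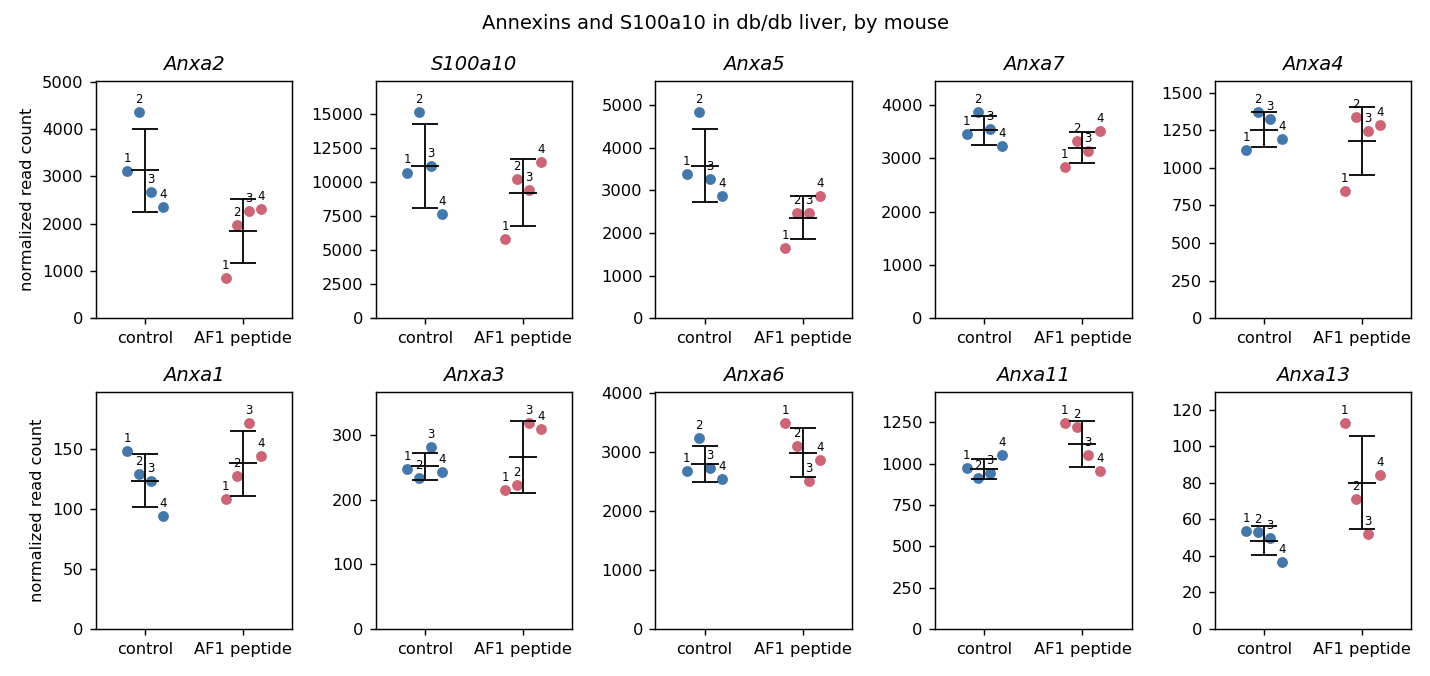
Normalized read counts of the 10 genes in each liver, 1 panel per gene, with control mice on the left and AF1 peptide-treated mice on the right. Numbers mark the replicate, and bars show the mean ± SD of 4 mice. In Anxa2 the groups do not overlap (lowest control 2350, highest AF1 peptide 2302), whereas the ranges of the other 9 genes overlap.

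Anxa5, whose protein binds phosphatidylserine on dying cells, was the other of the 10 genes called lower. Control mice had 3374, 4841, 3264 and 2858 normalized counts, and AF1 peptide-treated mice had 1655, 2464, 2466 and 2868. The groups overlapped by the single pair of control replicate 4 and AF1 peptide replicate 4, which lay next to each other. The log2 fold change of Anxa5 was -0.60 (standard error 0.19), and -0.44 without AF1 peptide replicate 1.

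Anxa13 moved the other way. This annexin, known mainly from epithelia of the gut and kidney, had low counts of 53.6, 53.2, 49.7 and 36.8 in control mice and 113, 71.2, 51.9 and 84.5 in AF1 peptide-treated mice. Of the treated mice, 3 lay above every control mouse and replicate 3 lay among them. Its log2 fold change was 0.68 (standard error 0.25), and 0.50 without AF1 peptide replicate 1. Without control replicate 4 it was 0.56 and no longer called. The counts behind it were 39 to 121 reads per library, so counting error weighs more here than in the rest of the family.

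The remaining 6 annexins differed by at most 0.20 on the log2 scale. The log2 fold change was 0.20 for Anxa11, an annexin with a long proline-rich tail (standard error 0.11). Its lowest value was 910 in control replicate 2 and its highest 1248 in AF1 peptide replicate 1, and 14.6% of the 50-base words in its transcripts are shared with those of the genes Gm2260 and Gm2274, so part of its reads could belong to these. Anxa7, which also carries a long tail and is known for membrane fusion, had 3220 to 3866 normalized counts in control and 2831 to 3504 in AF1 peptide-treated mice, and a change of -0.14 on the log2 scale (standard error 0.10). For Anxa4 the log2 fold change was -0.11 (standard error 0.15) and turned to 0.05 without AF1 peptide replicate 1. In Anxa4, that mouse had 844 counts and the other 7 mice had 1121 to 1372. For Anxa6, which has a double core of annexin repeats, it was 0.09 (standard error 0.12), and 0.00 after rescaling to equal totals. Anxa1, known for its part in ending inflammation, had 0.15 (standard error 0.19), and Anxa3 had 0.06 (standard error 0.16), which turned to -0.03 with equal totals. Leaving out AF1 peptide replicate 1, the log2 fold change was 0.26 for Anxa1, 0.16 for Anxa3, 0.01 for Anxa6, -0.08 for Anxa7 and 0.15 for Anxa11.

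**Figure D2:**
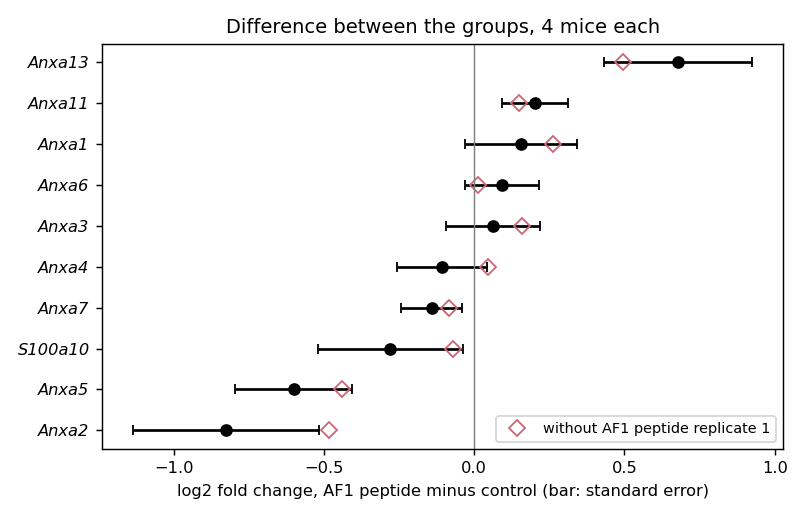
Log2 fold changes (AF1 peptide minus control, horizontal axis) of the 10 genes with their standard errors (bars), from 4 mice per group, and the same values without AF1 peptide replicate 1 (diamonds). Anxa2 (-0.82) and Anxa5 (-0.60) lie on the left and Anxa13 (0.68) on the right, and for these 3 genes the value without that mouse is nearer to 0.

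In the limma fit across all genes, where a gene was called if it changed over 1.3-fold with an unadjusted p below 0.05, 2 of the 10 genes (Anxa2 and Anxa5) were called lower, where 1.9% of all tested genes were, and 1 (Anxa13) was called higher, where 1.79% were. Anxa2 alone of the 10 had every AF1 peptide-treated mouse below every control mouse, as did 1.85% of all tested genes. Since the family was chosen on this comparison, nothing is read from these counts. The median log2 fold change was -0.02 over the 10 genes and -0.01 over all tested genes. No gene of the table (0 of 15989) passed a Benjamini-Hochberg adjusted p of 0.05 (limma). The smallest adjusted p value was 0.763, and 990 genes had an unadjusted p value under 0.05. edgeR gave 0 genes and DESeq2 gave 3 at that adjusted p value.

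Of the annexins outside the 10 genes, Anxa8 and Anxa9 were analysed, and Anxa10 was not analysed here. Anxa8 had 73.3, 52.2, 44.3 and 56.9 normalized counts in control mice and 13.1, 31, 33.8 and 31.2 in AF1 peptide-treated mice. Every treated mouse lay below every control mouse, as in 1.85% of all tested genes. These counts came from 41 to 89 reads per control mouse and 14 to 41 per AF1 peptide-treated mouse, so counting error weighs heavily. The difference was -1.09 on the log2 scale with a standard error of 0.31 (limma, Benjamini-Hochberg adjusted p = 0.763), and it was -0.78 without AF1 peptide replicate 1. For Anxa9 it was 0.35 (standard error 0.17), with the same adjusted p value.

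The promoter of Anxa2 is shown beside those of Anxa5, the annexin that moved with it, and Anxa11. Of the family, Anxa11 had the most negative Pearson correlation with Anxa2 within the groups. Each promoter is the 250 bases before the annotated start in RefSeq, 5′ to 3′ on the strand of the gene. The build is GRCm38.p6, whose coordinates differ from those of the mm39 build named for the reads. Promoters were found for 6 of the 10 genes, and S100a10, Anxa3, Anxa6 and Anxa13 were not matched. Capitals mark matches, on either strand, to 4 motifs. A core promoter element, the TATA box, was searched as TATAAA. The GC box, which Sp1 family factors bind, was searched as GGGCGG. The CCAAT box was searched by the letters of its name, and the site of AP-1 (Fos and Jun factors) as TGANTCA.
Anxa2, chr9:69453433-69453682, plus strand: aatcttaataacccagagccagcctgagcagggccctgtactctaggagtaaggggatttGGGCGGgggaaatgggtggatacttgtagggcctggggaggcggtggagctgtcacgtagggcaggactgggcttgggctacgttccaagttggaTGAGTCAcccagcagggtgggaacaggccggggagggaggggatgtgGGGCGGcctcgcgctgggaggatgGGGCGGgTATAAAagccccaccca
Anxa5, chr3:36475888-36476137, minus strand: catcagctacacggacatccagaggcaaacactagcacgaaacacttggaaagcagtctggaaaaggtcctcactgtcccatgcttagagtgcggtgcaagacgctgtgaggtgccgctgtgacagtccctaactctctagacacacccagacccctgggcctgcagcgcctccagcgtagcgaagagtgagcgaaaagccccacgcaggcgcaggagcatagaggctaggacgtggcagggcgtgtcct
Anxa11, chr14:25841905-25842154, plus strand: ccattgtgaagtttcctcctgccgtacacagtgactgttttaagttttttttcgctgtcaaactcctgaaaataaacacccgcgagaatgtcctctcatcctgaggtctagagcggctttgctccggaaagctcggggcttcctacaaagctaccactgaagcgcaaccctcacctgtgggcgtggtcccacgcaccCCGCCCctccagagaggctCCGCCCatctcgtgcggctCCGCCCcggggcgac

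The Anxa2 promoter held 1 TATA box, 3 GC boxes and 1 AP-1 match, the latter beginning 95 bases before the start. The Anxa5 promoter held none of these motifs, and that of Anxa11 held 3 GC boxes and no other match. Over the 32851 promoters of the reference table, 12.4% held a TATA box, 32.7% a GC box, 33.8% a CCAAT box and 6.75% an AP-1 match in the same 250 bases. Of the other promoters of the family, that of Anxa1 held 1 TATA box, the 2 of Anxa7 held 4 and 1 GC boxes, and the 2 of Anxa4 held none of the motifs. The 2 promoters of Anxa7 overlap, so 1 GC box counts in both. These are matches of letters only.

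The question of which annexins move with Anxa2 was asked within the groups, so that the difference between control and AF1 peptide does not enter. Each gene's log2(normalized count + 1) was taken as the deviation from its group mean in each mouse. For Anxa2 these deviations ran from -0.37 to 0.52 in control mice and were -1.02, 0.20, 0.40 and 0.42 in AF1 peptide replicates 1 to 4. Pearson's r and Spearman's rho with Anxa2 were tested by two-sided exact permutation tests that exchange mice within groups (576 permutations). The slope on Anxa2 was tested in limma across all 15988 other tested genes, with the group in the model and Benjamini-Hochberg adjustment over all of them. A total of 9 genes of the family were compared with Anxa2.

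Anxa5 followed Anxa2 most closely. Its r was 0.94 (exact permutation p = 0.0017, the smallest that these permutations can give) and its rho was 1.00 (exact permutation p = 0.0017), so the order of the 8 deviations was the same in both genes. In control mice alone r was 0.98 and in AF1 peptide-treated mice 0.97, with 4 mice each. Anxa5 rose by 0.56 log2 units for each log2 unit of Anxa2 (standard error 0.10, limma slope, Benjamini-Hochberg adjusted p = 0.0194). Without AF1 peptide replicate 1 its r was 0.95 (exact permutation p = 0.0069), and without both that mouse and control replicate 2, the mice farthest from the median of Anxa2, it was 0.78 over 6 mice.

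S100a10 came next. Its r was 0.92 (exact permutation p = 0.0122) and its rho 0.95 (exact permutation p = 0.0156), with a slope of 0.69 (standard error 0.13, limma adjusted p = 0.0219). When AF1 peptide replicate 1 was left out, its r was 0.87 (exact permutation p = 0.0972), and over the 6 mice without control replicate 2 as well it was 0.65.

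Of the 9 genes, Anxa5 and S100a10 had a positive slope on Anxa2 with an adjusted p value under 0.05, as did 2.23% of all other tested genes. In the ranking of all 15988 genes by r, Anxa5 stood in place 90 and S100a10 in place 169. The median size of r over all genes was 0.48, so a large r with Anxa2 was common. Without AF1 peptide replicate 1, the limma slope had an adjusted p value under 0.05 for 0 genes of the table (1044 had an unadjusted p value under 0.05), with 0.315 for Anxa5 and 0.502 for S100a10. In that fit the slopes of Anxa5 (0.82) and S100a10 (0.92) were above those with all mice. Without AF1 peptide replicate 4 the adjusted p values were 0.0711 and 0.0774, and after rescaling to equal totals they were 0.14 and 0.0977. They were 0.0821 and 0.0812 in limma without the trend, and a block on replicate numbers gave 0.235 and 0.255.

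Anxa7 had an r of 0.86 (exact permutation p = 0.0156) with a shallow slope of 0.19 (standard error 0.09, limma adjusted p = 0.252), and its r without AF1 peptide replicate 1 was 0.77 (exact permutation p = 0.104). It was 0.38 after rescaling to equal totals. Anxa4 had an equal r of 0.86 (exact permutation p = 0.0781), but this rested on AF1 peptide replicate 1. Leaving that mouse out, the r of Anxa4 was 0.37, and without control replicate 2 as well it was -0.50. Anxa1 had an r of 0.73 (exact permutation p = 0.0781) and Anxa3 of 0.51 (exact permutation p = 0.382). Without AF1 peptide replicate 1 the r of Anxa1 was 0.58 (exact permutation p = 0.299) and that of Anxa3 was -0.01.

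Anxa11 had a negative r with Anxa2 of -0.72 (exact permutation p = 0.0712), and 10.6% of all other tested genes had an r at least as low. Its rho was -0.81 (exact permutation p = 0.0139), and the limma adjusted p value of its slope was 0.306. Leaving out AF1 peptide replicate 1, its r was -0.61 (exact permutation p = 0.0556). Its r was -0.81 in control mice and -0.70 in AF1 peptide-treated mice. Anxa6 (r = -0.31) and Anxa13 (r = -0.43) had exact permutation p values of 0.549 and 0.45. With AF1 peptide replicate 1 left out, the r of these genes turned to 0.59 and 0.45, so that their negative sign rested on that mouse. Anxa8 had an r of 0.79 (exact permutation p = 0.109), and 0.06 without AF1 peptide replicate 1.

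**Figure D3:**
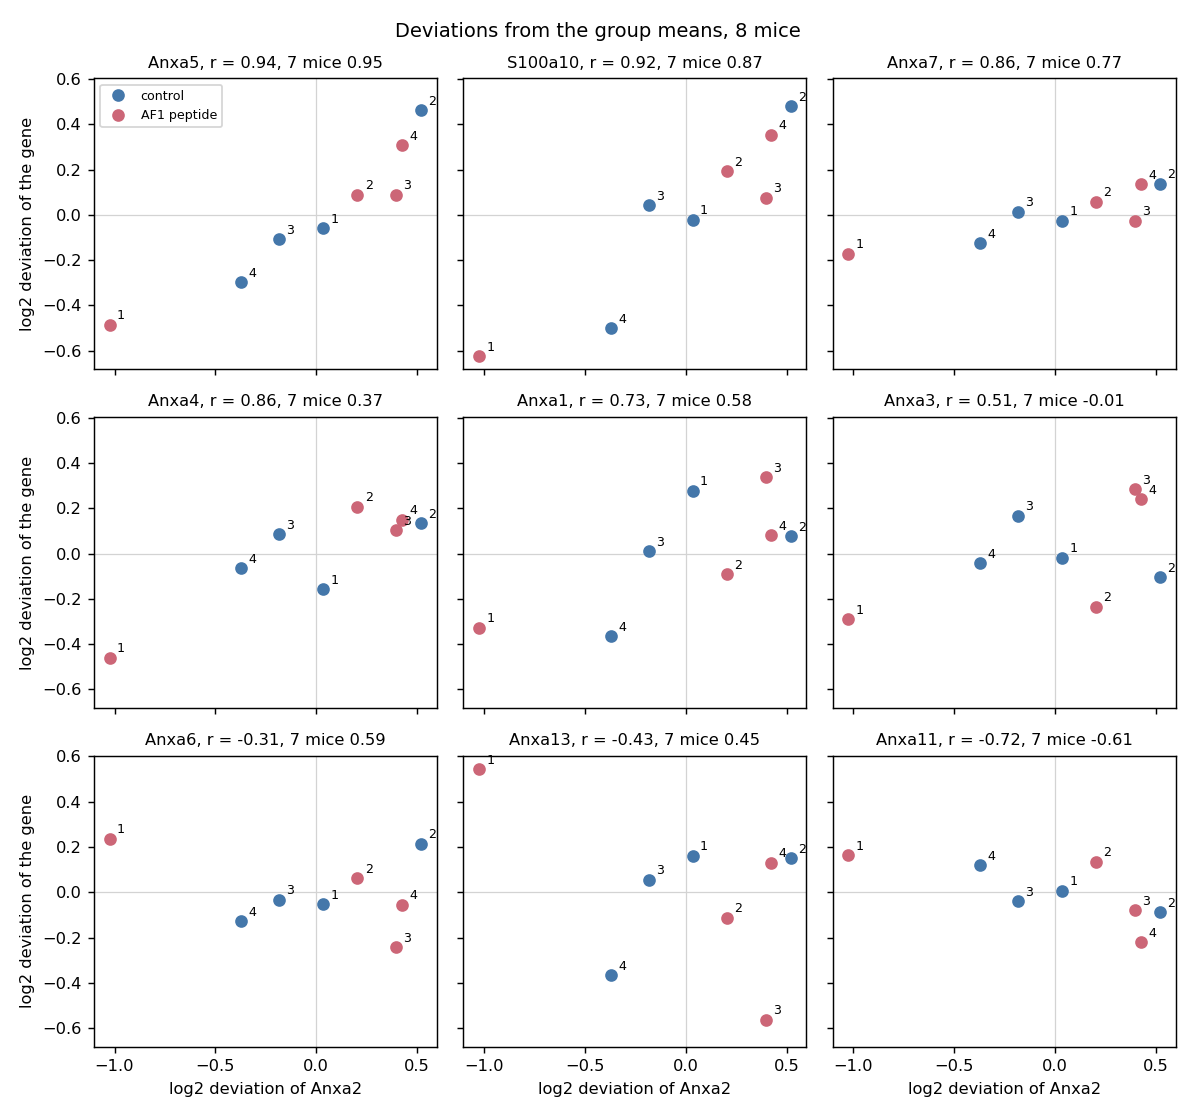
Log2 deviation of each gene from its group mean (vertical axis) against that of Anxa2 (horizontal axis), 1 point per mouse with its replicate number. Panel titles give r over 8 mice and over the 7 mice without AF1 peptide replicate 1. The 2 values of r are 0.94 and 0.95 for Anxa5, 0.92 and 0.87 for S100a10, and 0.86 and 0.37 for Anxa4.

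Among all 45 pairs of the 10 genes, the pair with the highest r did not include Anxa2. Anxa7 and S100a10 had an r of 0.98 and a rho of 0.93 (exact permutation p = 0.0017 each), with an r of 0.96 without AF1 peptide replicate 1. By rho, the closest pair was Anxa2 with Anxa5 (1.00), whose r without that mouse was 0.95. Anxa5 had an r of 0.97 with S100a10 (exact permutation p = 0.0069) and of 0.95 with Anxa7 (exact permutation p = 0.0069). Anxa2, Anxa5, Anxa7 and S100a10 had r from 0.86 to 0.98 with each other, and Anxa4 had 0.80 to 0.86 with each of them. Without AF1 peptide replicate 1, Anxa4 had 0.37 to 0.66 with them. In those 7 mice Anxa6 had 0.84 with Anxa7 and 0.78 with S100a10, beside 0.77 for Anxa2 with Anxa7. Over the 8 mice, 20 of the 45 pairs had a negative r, all of them with Anxa6, Anxa11 or Anxa13. The sign of many pairs changed without AF1 peptide replicate 1. Then 10 of these 20 pairs had a positive r (Anxa5 with Anxa6 went from -0.01 to 0.75), and 8 others turned negative, among them Anxa3 with Anxa2, Anxa4, Anxa5, Anxa7 and S100a10, and Anxa1 with Anxa4. A single p value of this kind is not adjusted for the 45 pairs.

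**Figure D4:**
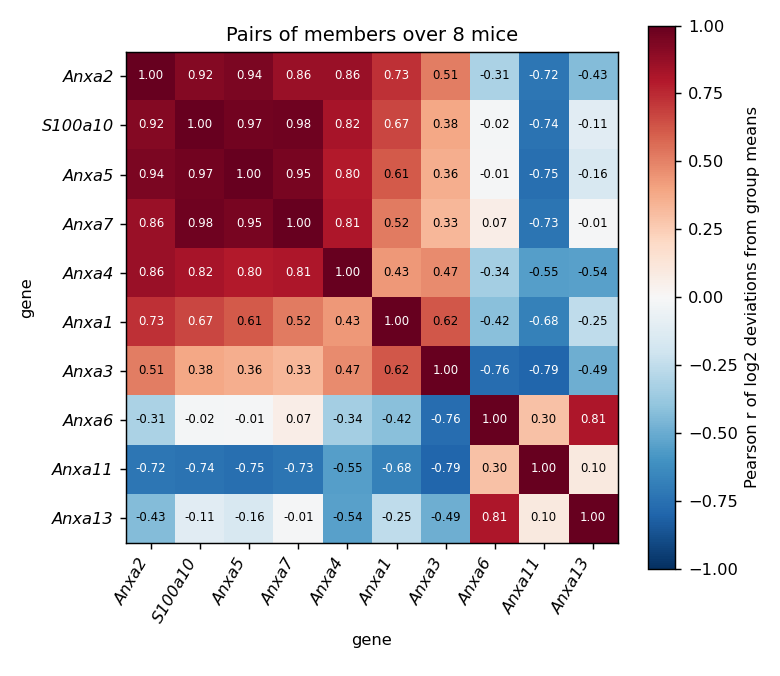
Pearson's r of the log2 deviations from the group means for each pair of the 10 genes over 8 mice, with color from blue (-1) to red (1). Anxa2, S100a10, Anxa5 and Anxa7 have r from 0.86 to 0.98 with each other and 0.80 to 0.86 with Anxa4. Anxa11 is negative with Anxa2, S100a10, Anxa5 and Anxa7 (-0.75 to -0.72).

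Of the 10 marker lists of liver cell types, 9 had their lowest sum in AF1 peptide replicate 1, the mouse with the least Anxa2, and the exception was the adipocyte list. The hepatocyte sum was 1742203 in that mouse and 2147003 to 2611827 in the other 7. The 10 resident Kupffer cell markers, all in the table, summed to 7951 to 10196 normalized counts in control mice and to 3513 to 9431 in AF1 peptide-treated mice, with the lowest sum in AF1 peptide replicate 1. The 9 recruited macrophage markers (9 of 9 in the table) summed to 1768 to 3478 in control and 890 to 2708 in AF1 peptide-treated mice. The 12 stellate cell and fibroblast markers (12 of 12) summed to 7236 to 10172 and 5572 to 11386. The biliary epithelium markers (9 of 10) summed to 1744 to 2336 and 1227 to 2905.

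Over the 8 mice, the deviations of these sums had an r with Anxa2 of 0.82 for Kupffer cells, 0.89 for recruited macrophages, 0.82 for stellate cells and 0.88 for biliary epithelium. In the 7 mice without AF1 peptide replicate 1, the values were -0.17, 0.74, 0.67 and 0.61. Hepatocyte markers (8 of 8) gave 0.73 over 8 mice and -0.15 without that mouse. Sinusoidal endothelium markers (10 of 10) gave 0.32 and -0.25, and lymphocyte markers (9 of 9) 0.17 and -0.58. Neutrophil markers (7 of 8) gave 0.79 and 0.15, mesothelium markers (7 of 7) 0.60 and 0.45, and adipocyte markers (4 of 7) 0.14 and -0.66. The sums of the last 3 lists were 67.2 to 290 normalized counts for neutrophils, 20.5 to 238 for mesothelium and 25508 to 52925 for the adipocyte list. Adipoq, Plin1 and Lep were not in the table, so the adipocyte sum came from Cfd, Car3, Retn and Cidec alone. Whether adipocytes were present was not tested. The neutrophil markers Mmp8, Mmp9 and Cxcr2 and the biliary marker Cftr were below 10 normalized counts in every mouse. These correlations describe 8 livers, and the part of these cells in the annexin values was not tested.

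**Figure D5:**
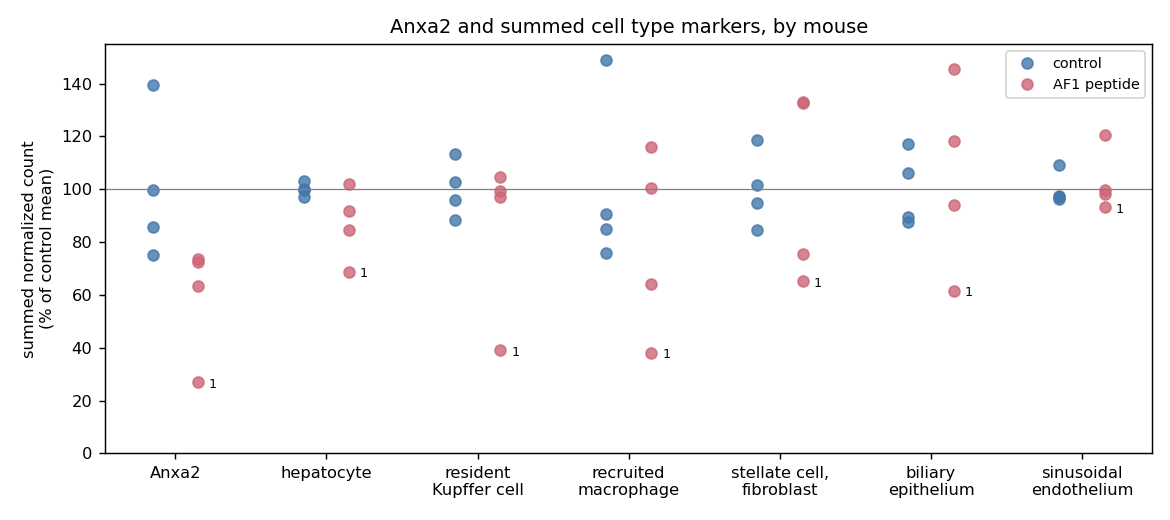
Normalized counts of Anxa2 and summed counts of the markers of 6 cell types in each mouse, as a percentage of the control mean (line at 100), with control mice left and AF1 peptide-treated mice right in each column. The point marked 1 is AF1 peptide replicate 1, the lowest of the 8 mice in each column.

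S100a10, described above, was left out of the list of the S100 family. Of its 9 tested genes, 3 rose with Anxa2 within the groups in limma (S100a6, S100a11 and S100g), where 2.23% of all tested genes did. None fell with it, where 1.38% did. S100a11, which encodes a partner of annexin A1, had a slope of 1.62 (standard error 0.23, limma adjusted p = 0.0099), and 0.70 without AF1 peptide replicate 1. It had 287 normalized counts in AF1 peptide replicate 1 and 1258 to 2465 in the other 7 mice. S100a6, whose protein binds several annexins, had a slope of 1.42 (standard error 0.25, adjusted p = 0.0185), and S100g, a calcium buffer, had a slope of 2.03 (standard error 0.27, adjusted p = 0.0069). In the 7 mice without AF1 peptide replicate 1 these slopes were 1.37 and 2.65. S100g ranged from 6.53 in AF1 peptide replicate 1 to 165 in control replicate 2. Between the groups, no S100 gene was called. S100a13 and S100a1 had the smallest p values, with log2 fold changes of 0.19 and 0.21 (adjusted p = 0.763 and 0.773 in limma).

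In the list of plasminogen activation at the cell surface, where annexin A2 with S100A10 serves as a receptor, 1 of 16 tested genes rose with Anxa2 and 1 fell, beside 2.23% and 1.38% of all tested genes. Plat, the tissue plasminogen activator, had a slope of 1.82 (standard error 0.24, limma adjusted p = 0.0069), and 1.44 without AF1 peptide replicate 1. It had low counts, with 5.6 in AF1 peptide replicate 1 and 21.8 to 55.1 in the other mice. Serpinf2, the hepatocyte-made inhibitor of plasmin, had a slope of -0.60 (standard error 0.11, adjusted p = 0.0194), and -0.41 without AF1 peptide replicate 1, with 10298 normalized counts in AF1 peptide replicate 1 and 4848 to 6501 elsewhere. Fgg, a fibrinogen chain, had a slope of -0.60 (standard error 0.18, adjusted p = 0.0883). Between the groups, 1 of the 16 genes was called lower, where 1.9% of all tested genes were. It was Thbd, which encodes thrombomodulin (log2 fold change -0.54, adjusted p = 0.763 in limma).

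Of 17 tested partners and receptors of annexins, 3 rose with Anxa2 (Src and, counted above as well, S100a6 and S100a11), beside 2.23% of all tested genes, and none fell. Src, the kinase that phosphorylates annexin A2, had a slope of 1.03 (standard error 0.16, limma adjusted p = 0.0122), which was 0.55 without AF1 peptide replicate 1, and its lowest count, 54.1, in AF1 peptide replicate 1 (165 to 260 in the others). Between the groups none of these genes was called, and Sri (sorcin) and Pla2g4a (a cytosolic phospholipase) had log2 fold changes of -0.22 and -0.81 (adjusted p = 0.763 each). Of 21 tested genes of membrane repair and calcium-dependent phospholipid binding, 1 rose with Anxa2, again beside 2.23%, namely Capn2, a calpain (slope 0.63, standard error 0.14, limma adjusted p = 0.0402, and a slope of 0.20 without AF1 peptide replicate 1). Its partner subunit Capns1 and the copine Cpne1 had slopes of 0.34 and -0.36 (adjusted p = 0.098 and 0.101). The ESCRT genes Chmp2a and Chmp4b had log2 fold changes between the groups of 0.23 and -0.24 (adjusted p = 0.763 each). None of the slopes in these 4 lists had an adjusted p value under 0.05 without AF1 peptide replicate 1.

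The genes of the whole table with a pattern nearest to that of Anxa2, among those averaging 50 or more normalized counts, were Pgd, Katnal1, Acox3 and Scamp5, with r of the deviations from 0.98 to 0.99 over 8 mice. Pgd, an enzyme of the pentose phosphate pathway, had 1386 normalized counts in AF1 peptide replicate 1 and 2582 to 4036 in the other 7 mice. Its slope was 0.75 (standard error 0.09, limma adjusted p = 0.0046), and 0.66 without AF1 peptide replicate 1 (limma adjusted p = 0.502). With all mice, the limma adjusted p values of the slope were 0.19 for Katnal1, 0.0904 for Acox3 and 0.0384 for Scamp5. The most opposite genes were Gm10614, Gm3704, Bnip2, Klb and Polr2h, with r of -0.99 to -0.98. Klb, the FGF21 co-receptor β-Klotho, had 736 normalized counts in that mouse and 470 to 622 elsewhere. Without AF1 peptide replicate 1, the r of these 9 genes was 0.93 to 0.96 and -0.97 to -0.91. They were picked from 15988 genes for their r, so r and the slopes are given as a description.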

How the data were processed

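Liver RNA of 4 control and 4 AF1 peptide-treated db/db mice, labelled as biological replicates, was made into stranded mRNA libraries. Per the submitters' processing notes, reads were processed with Trim Galore 0.6.7, HISAT2 and SAMtools 1.17 and the genome build mm39. Which annotation and normalization tool were used, and whether counting used strand, is not given in the sources used here. The authors deposited a normalized signal, reads divided by a size factor, and all 172256 values gave whole reads within 0.01 read (100%). Genes with a mean of at least 10 were fitted on log2(value + 1) with limma 3.58.1 (trend, Benjamini-Hochberg adjustment), and edgeR 4.0.16 and DESeq2 1.42.0 were run on the recovered reads. A call was an unadjusted p value under 0.05 with over 1.3-fold change. Correlations and exact permutations were computed with numpy 2.4.6. The scripts were tested on simulated data. The text names all 10 genes, Anxa8, Anxa9 and Anxa10, the 5 genes nearest and the 5 most opposite to Anxa2, in each pathway list the 3 genes with the smallest p for the slope and the 2 with the smallest p between groups, and markers near 0, except 2 genes that are not reported here. These genes and lists were chosen with earlier results of these data known. Lists may share genes. Overlapping genes on the opposite strand (Gm16144 for Anxa2, Anxa11os for Anxa11, 1500015L24Rik for Anxa1) could share reads if strand was not used. Intervals of counts were not computed. The limma p values set a difference or slope against the spread between these mice, and the permutation p values come from exchanging mice within groups.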

Additional observations from a re-analysis of the deposited data

Results flagged for a closer look

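Of 46 groups of 4 values tested for a single distant mouse with Dixon's ratio of gap to range, 4 passed the 95% critical value, where chance would give about 2.3. Anxa8 was far lower in AF1 peptide replicate 1 (13.1 normalized counts from 14 reads, ratio 0.868) than in the other treated mice. The resident Kupffer cell marker sum was also far lower in that mouse (3513, ratio 0.886). The sinusoidal endothelium marker sum was highest in control replicate 4 (9364, ratio 0.905), and the mesothelium marker sum was highest in AF1 peptide replicate 4 (238, ratio 0.901). The causes were not tested.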

How the results depend on the processing

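Under every alternative run, the log2 fold changes of the 10 genes shifted by less than the SD between mice within groups. This is a wide limit where the SD exceeds the fold change itself, as in Anxa3 (SD 0.23, log2 fold change 0.06). The sign was kept in 15 of 18 alternatives for Anxa3 and in 17 of 18 for Anxa4. Genes called lower numbered 304, with 459 without a filter, 602 after rescaling to equal totals and 172 to 486 when 1 mouse was left out (172 without control replicate 2, 486 without AF1 peptide replicate 1). Genes called higher numbered 286, with 435, 122 and 201 to 457 (457 without AF1 peptide replicate 1). With equal totals the median log2 fold change over all genes went from -0.01 to -0.10. Of the family, 2 genes were called lower (1 to 2 with 1 mouse left out, 1 without control replicate 2) and 1 higher (0 to 1, 0 without control replicate 4). Genes that moved with Anxa2 in either direction numbered 576, with 190 after equal totals, 86 without the limma trend and 0 to 1133 with 1 mouse left out (0, 313, 250 and 110 without AF1 peptide replicates 1 to 4, 1133 without control replicate 2). The 2 genes of the family that moved with Anxa2 became 0 with equal totals, without the trend, and without AF1 peptide replicate 1 or 4 (range 0 to 2). The cause was not tested.

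Same-numbered mice had correlations of their deviations of 0.24, 0.02, 0.22 and -0.06. Between differently numbered mice of the 2 groups these ran from -0.27 to 0.14, so 0.24 and 0.22 lay above all of them. The labels give no pairing, and the main fits left the mice unpaired. Whether mice of the same number share a batch was not tested. With the replicate number as a block, 392 genes were called lower and 341 higher, 3 genes moved with Anxa2, and of the family 0 did. The cause was not tested.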
